A study of Mus musculus with 4 samples.

Results

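The CCN proteins are a small family of secreted, matrix-associated signalling proteins. Members of the family were chosen by name: Cyr61 (also called Ccn1), Ctgf (Ccn2), Nov (Ccn3), Wisp1 (Ccn4) and Wisp2 (Ccn5), which are 5 of the 27998 genes in the count tables. The sixth family gene, Wisp3 (Ccn6), was read alongside them. All 5 were found, under the Ensembl identifiers ENSMUSG00000028195, ENSMUSG00000019997, ENSMUSG00000037362, ENSMUSG00000005124 and ENSMUSG00000027656. Their transcripts were followed across stromal cell types of mouse bone and across models of myelodysplastic syndrome (MDS), a clonal disorder of blood formation.

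Most CCN proteins are built from the same run of modules: an IGF-binding-protein-like module, a von Willebrand type C module, a thrombospondin type 1 repeat and a C-terminal cystine knot. They are not structural fibres. They sit in the matrix, bind integrins, heparan sulphate proteoglycans and growth factors, and so tune adhesion, growth factor signalling and matrix turnover. Cyr61 and Ctgf are textbook targets of the YAP/TAZ co-activators, which work with TEAD factors and respond to mechanical load, and Ctgf is also induced by TGF-beta. Wisp1 was named as a Wnt-induced gene and is known from bone-forming cells. Wisp2 lacks the cystine knot, and its coding sequence of 753 bases (251 codons) was the shortest of the family in the GENCODE M21 annotation, where the coding sequences of the other members ran from 1044 bases in Ctgf to 1137 bases in Cyr61.

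The study profiled sorted stromal cells of the femora and tibiae of C57BL/6 mice by droplet single-cell RNA sequencing, which counts molecules through unique molecular identifiers (UMIs) near the 3′ end of transcripts. The 4 libraries form 2 pairs: WT_A1 (genotype WT) with NHD13Tg, which carries a Nup98-HoxD13 transgene, and Control (genotype WT) with Abcg2-MDS/AML. All 4 came from bone crushed and digested with collagenase and from cells sorted as CD45-, TER119-, CD31-, CD140a+ and CD51+. There was 1 library per group, and the ages of the mice, the number pooled per library, the promoter of the transgene and the way the Abcg2 model was made are not stated in the labels.

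Barcodes with at least 2000 UMIs, at least 500 genes and at most 10% mitochondrial UMIs were taken as cells, which left 4973 (WT_A1), 5766 (NHD13Tg), 5158 (Control) and 5586 (Abcg2-MDS/AML), with median depths of 4186 to 5452 UMIs. Any pair of libraries shared 6 to 14 cell barcodes, at most 0.251% of the smaller library. Xist, the transcript of the inactive X chromosome, stood at 0.177 and 0.0288 CPM (UMIs per 1000000) in the NHD13 pair and at 726 and 956 CPM in the Abcg2 pair, so libraries matched within each pair and the pairs differed. What separates the pairs therefore cannot be told apart from this difference.

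Cells were typed by marker thresholds that hold no CCN gene, and a cell that passed thresholds of more than 1 type was left out, except that cells passing only the fibroblast and the Pi16 threshold counted as Pi16 fibroblasts. Below, 4 values in a row are in the order WT_A1, NHD13Tg, Control, Abcg2-MDS/AML. Mesenchymal stromal cells high in Adipoq, Lepr and Esm1, called MSC here, numbered 630, 1802, 417 and 154. Osteocalcin-high osteoblasts numbered 92, 141, 54 and 6, and Col9-high chondrocytes 4, 6, 971 and 826. Dpt/Clec3b/Col14a1 fibroblasts numbered 1159, 899, 224 and 494, Pi16/Dpp4 fibroblasts 144, 210, 9 and 51, and Thbs4/Myoc tendon cells 495, 486, 446 and 944. A type with fewer than 20 cells in a library was not used there, which left 20 sums of type and library.

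Each type's own markers were found in its cells, but their levels differed between libraries. In the MSC of Abcg2-MDS/AML the MSC markers summed to 10116 CPM, against 34656 to 38176 CPM in the MSC of the other libraries. Cxcl12, a defining niche chemokine of these cells, stood at 1925 CPM there against 17135 to 19209 CPM, and Adipoq at 275 CPM against 1339 to 3431 CPM. The 10 fibroblast markers were higher there, at 16966 CPM against 2103 to 3553 CPM, mostly through Dcn at 14405 CPM. Other cells within the threshold and lower transcript levels in MSC cannot be told apart here. That limit holds for every MSC result below that draws on Abcg2-MDS/AML, including the tests across types and the joint fits. The chondrocytes of the Abcg2 pair differed too: from Control to Abcg2-MDS/AML their chondrocyte markers summed to 41006 and 20346 CPM, osteoblast markers to 7366 and 1591 CPM and the 6 synovial lining markers to 12156 and 3122 CPM. So did the fibroblasts of this pair, in the same order: MSC markers summed to 894 and 2408 CPM and fibroblast markers to 38881 and 53419 CPM. Their osteoblast markers summed to 4554 and 1439 CPM, chondrocyte markers to 1145 and 235 CPM and tendon markers to 5799 and 2548 CPM.

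Promoter entries were found for 1 of the 5 members, Cyr61, a known TEAD target, and its promoter is shown for that reason. The 250 bases before the Cyr61 start site lie at chr3:145649986-145650235 on the minus strand of GRCm38.p6 (RefSeq), and are printed 5′ to 3′ along the gene, with the match to the TEAD motif GGAATG, read on the opposite strand, in capitals.
Cyr61: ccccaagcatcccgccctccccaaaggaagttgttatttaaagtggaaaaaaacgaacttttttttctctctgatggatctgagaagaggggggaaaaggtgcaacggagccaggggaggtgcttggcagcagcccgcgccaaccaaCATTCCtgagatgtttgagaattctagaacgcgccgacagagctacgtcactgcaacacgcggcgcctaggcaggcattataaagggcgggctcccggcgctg
The capitals lie at positions -103 to -98 from the start site, and a TATA motif (TATAAA) lies at -25 to -20. On both strands, GGAATG occurred in 12.6% of 32851 promoters of the same length and TATAAA in 12.4%, so neither match is rare. The letters of the AP-1 (TGACTCA), CRE (TGACGTCA), SMAD (GTCTAGAC) and EGR (GCGTGGGCG) motifs did not occur in this window.

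The first question was in which stromal types each member is transcribed. Each member had its own pattern: Wisp2 was highest in MSC, Wisp1 in osteoblasts and Nov in both fibroblast types, while Cyr61 and Ctgf were found in every type at different levels. Ctgf in osteoblasts and in Pi16 fibroblasts, given below, was low beside the free RNA, which held 1488, 1837, 1194 and 3315 CPM. Across the 30 comparisons of 1 type against the mean of the other 5, 24 passed edgeR's quasi-likelihood test with Benjamini-Hochberg adjustment over 11684 genes, with library as a block. In MSC, 3 members were higher and 1 lower, where 26.1% and 20.2% of all genes were. In osteoblasts 2 were higher and 3 lower, beside 18.7% and 21% of all genes, and in chondrocytes 3 higher and 2 lower, beside 22.3% and 16.1%. In fibroblasts 2 were higher and 1 lower (12.8% and 5.96% of all genes), in Pi16 fibroblasts 2 higher and 3 lower (10.8% and 7.6%), and in tendon cells 2 higher and 0 lower (12.9% and 4.83%). Without the Abcg2-MDS/AML library, 25 passed. With library totals in place of TMM scaling the median of all genes moved to 0.32 in MSC, -0.35 in osteoblasts, -0.30 in chondrocytes, 0.16 in fibroblasts and 0.13 in Pi16 fibroblasts, and the genes called higher and lower from 3046 and 2358 to 4663 and 1287 in MSC, from 2182 and 2451 to 1382 and 3761 in osteoblasts, from 2603 and 1883 to 1528 and 3388 in chondrocytes, from 1490 and 696 to 2244 and 428 in fibroblasts, and from 1259 and 888 to 1742 and 542 in Pi16 fibroblasts. Of the 30 comparisons of members, 24 still passed. Between single types, read below as steps in the order of fitted levels, calls over all genes were common except between the fibroblast types and tendon cells. MSC were higher than fibroblasts for 21.8% of genes and than Pi16 fibroblasts for 16.2%, and lower than tendon cells for 21.3%. Osteoblasts were higher than chondrocytes for 13.8% and lower for 19.3%, and chondrocytes were higher than tendon cells for 17% and lower for 16.6%. Fibroblasts were higher than Pi16 fibroblasts for 0.377%, and higher than tendon cells for 3.46% and lower for 3.69%, while Pi16 fibroblasts were higher than tendon cells for 5.45%. MSC were lower than osteoblasts for 19.7% of genes and higher than chondrocytes for 22%. The libraries stand in as replicates here. With library as a block, these p-values measure how far the differences between types vary from library to library. The libraries differ in genotype. Nothing in the labels says how many animals each library holds.

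**Figure D1:**
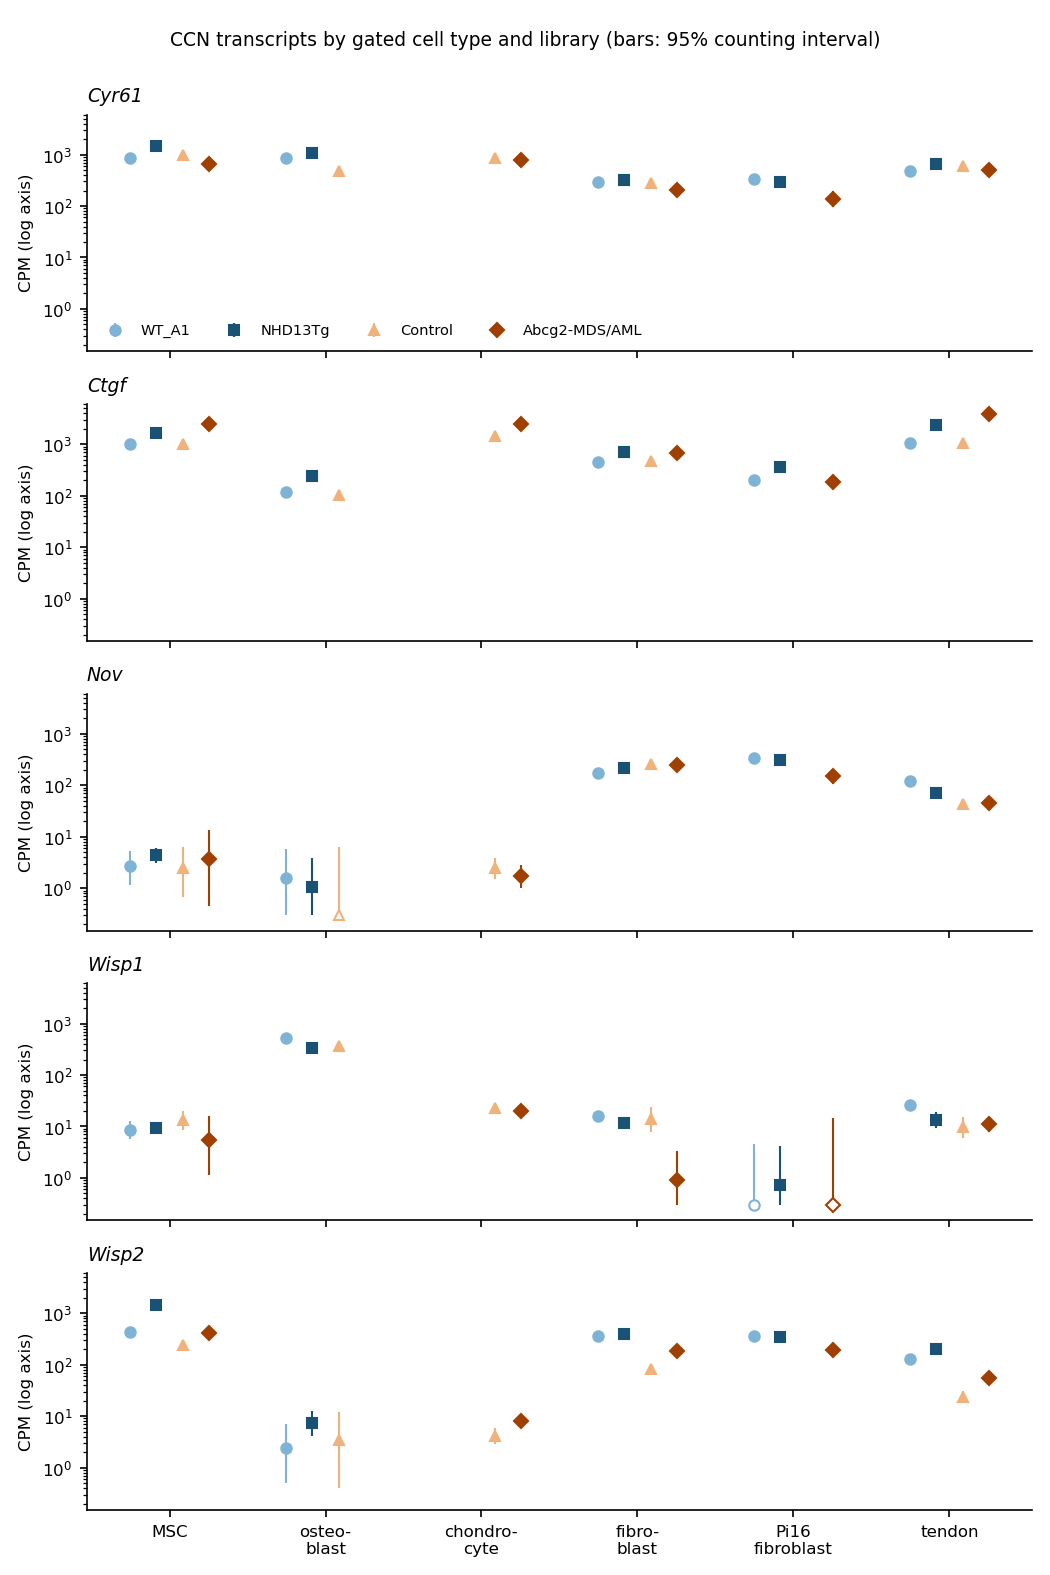
Level of each member (CPM, log axis) in the 6 gated cell types, 1 point per library with at least 20 cells, with exact 95% Poisson intervals for counting error; open symbols at the bottom of the axis are levels of 0. Wisp1 sits above 300 CPM only in osteoblasts, Nov is above 40 CPM in fibroblasts, Pi16 fibroblasts and tendon cells and under 5 CPM in the other types, and Cyr61 and Ctgf are above 100 CPM in all of them.

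Wisp2, the family member without the cystine knot, was a gene of MSC and fibroblasts. Its level in MSC was 435, 1475, 242 and 413 CPM. In fibroblasts it was 362, 388, 83.2 and 183 CPM, in Pi16 fibroblasts 355, 346 and 190 CPM (WT_A1, NHD13Tg, Abcg2-MDS/AML), and in tendon cells 131, 198, 23.8 and 55.3 CPM. NHD13Tg was highest of the 4 libraries in MSC, and Control was lowest in all 3 types that it shares with the others. Chondrocytes held 4.18 CPM (Control) and 8.03 CPM (Abcg2-MDS/AML) and osteoblasts 2.39, 7.37 and 3.38 CPM in WT_A1, NHD13Tg and Control. Against the mean of the other types, Wisp2 was higher in MSC by 3.37 on the log2 scale (SE 0.18, edgeR quasi-likelihood adjusted p = 1.63e-10, n = 4 libraries) and lower in osteoblasts by a log2 of -4.90 (SE 0.40, adjusted p = 4.17e-08, same test). In the order of fitted levels, MSC stood above fibroblasts by a log2 of 1.14 (SE 0.24, adjusted p = 0.000892), fibroblasts and Pi16 fibroblasts did not differ beyond the spread (0.07, SE 0.26), and Pi16 fibroblasts stood above tendon cells by 1.30 (SE 0.26). Chondrocytes ranked above osteoblasts by 1.79 (SE 0.51), a call lost without NHD13Tg (1.91, adjusted p = 0.0559) or without Abcg2-MDS/AML (1.68, adjusted p = 0.106), and with doubled thresholds (0.21). The step to tendon cells was lost with cells counted in every threshold passed (0.85, edgeR in all).

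Wisp1 marked osteoblasts. There it stood at 516, 340 and 362 CPM in WT_A1, NHD13Tg and Control, and the 6 osteoblasts of Abcg2-MDS/AML, too few to use, gave 364 CPM. No other type overlapped with this range: chondrocytes held 22.8 and 20.2 CPM, tendon cells 26.3, 13.4, 9.79 and 11.1 CPM, fibroblasts 16.0, 11.5, 14.0 and 0.913 CPM and MSC 8.72, 9.39, 13.4 and 5.53 CPM. In Pi16 fibroblasts 0 UMIs were seen in WT_A1 and in Abcg2-MDS/AML and 1 UMI in NHD13Tg, too few for a fold. Cells that passed no threshold held 66.2, 107, 17.1 and 16.0 CPM. In WT_A1 and NHD13Tg they held 824 and 1097 Wisp1 UMIs, against 648 and 646 in osteoblasts. Wisp1 was 5.96 higher on the log2 scale in osteoblasts than in the mean of the other types (SE 0.25, edgeR quasi-likelihood adjusted p = 9.92e-12, n = 3 libraries with osteoblasts). The step to the next type, chondrocytes, was 3.59 (SE 0.43, adjusted p = 6.50e-06). The steps from tendon cells to fibroblasts, 0.68 (SE 0.33), and from fibroblasts to MSC, 0.26 (SE 0.35), were not past the test. The step from MSC to Pi16 fibroblasts was (adjusted p = 0.00482, edgeR), with 1 Wisp1 UMI in all Pi16 fibroblasts, and it was lost without WT_A1 (adjusted p = 0.0553) or without NHD13Tg (0.0710). The step from chondrocytes to tendon cells, 1.22 (SE 0.37), was lost without NHD13Tg (adjusted p = 0.0756) and without Abcg2-MDS/AML (adjusted p = 0.0894, edgeR in both).

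Nov, a member known for restraining growth and for a role in blood stem cells, was a fibroblast gene. It stood at 171, 216, 261 and 250 CPM in fibroblasts and at 336, 312 and 151 CPM in Pi16 fibroblasts of WT_A1, NHD13Tg and Abcg2-MDS/AML. The 2 fibroblast types overlapped. Tendon cells followed with 123, 69.7, 43.8 and 44.5 CPM, and in Control 25 of the tendon cells' 94 UMIs came from 1 cell. MSC, osteoblasts and chondrocytes held at most 4.35 CPM in any library. Against the other types Nov was higher in fibroblasts by a log2 of 4.28 (SE 0.22, edgeR quasi-likelihood adjusted p = 9.48e-10, n = 4 libraries), in Pi16 fibroblasts by 4.42 (SE 0.26) and in tendon cells by 2.27 (SE 0.24). The step between Pi16 fibroblasts and fibroblasts was 0.11 (SE 0.29) and not past the test, that from fibroblasts to tendon cells was 1.68 (SE 0.26, adjusted p = 0.000487), and that from tendon cells to chondrocytes was 4.43 (SE 0.44). Where cells were counted in every threshold they passed, so that many cells entered both sums, the step from fibroblasts to tendon cells was 0.91 and no longer past the test (adjusted p = 0.199, edgeR).

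Cyr61, an adhesive and angiogenic member that responds within minutes to serum and stretch in cultured cells, was transcribed in all types. MSC held 875, 1474, 990 and 667 CPM, osteoblasts 874, 1060 and 485 CPM in WT_A1, NHD13Tg and Control, and chondrocytes 843 and 781 CPM. Tendon cells held 470, 658, 592 and 503 CPM. Tendon cells overlapped with osteoblasts but lay below every library's MSC and chondrocytes, and the other 3 types overlapped. Fibroblasts (293, 317, 278 and 207 CPM) and Pi16 fibroblasts (332, 290 and 140 CPM) lay below all 4 of these types. Cyr61 was higher than in the mean of the other types in chondrocytes (log2 1.38, SE 0.23, edgeR quasi-likelihood adjusted p = 0.000163, n = 2 libraries with chondrocytes), osteoblasts (0.77, SE 0.20) and MSC (0.72, SE 0.17), and lower in fibroblasts (-1.35, SE 0.19) and Pi16 fibroblasts (-1.58, SE 0.24). The fitted chondrocyte level, 1232 CPM after TMM scaling and the library block, lay above both observed values. In Control, MSC (990 CPM) lay above chondrocytes (843 CPM), and in Abcg2-MDS/AML below them (667 against 781 CPM). The osteoblast call was lost without NHD13Tg (0.69, adjusted p = 0.0693). In the order of fitted levels chondrocytes, osteoblasts, MSC and tendon cells did not differ from their neighbours beyond the spread, and the one step past the test was that from tendon cells to fibroblasts (1.17, SE 0.22, adjusted p = 0.00322, edgeR), which was lost with cells counted in every threshold passed (0.81, adjusted p = 0.130). Of the steps that missed the test, that from MSC to tendon cells (0.55, SE 0.22, adjusted p = 0.0572) passed it in several alternatives given in the closing section.

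Ctgf, a member tied to cartilage growth and to fibrosis, was high in tendon cells, chondrocytes and MSC. Tendon cells held 1036, 2347, 1075 and 3891 CPM, chondrocytes 1451 and 2501 CPM, and MSC 991, 1653, 1021 and 2508 CPM. In each of these types the model library of a pair lay above its wild-type library. Fibroblasts held 453, 703, 465 and 671 CPM, Pi16 fibroblasts 204, 369 and 182 CPM, and osteoblasts 118, 246 and 101 CPM. The 6 osteoblasts of Abcg2-MDS/AML, not used, gave 2799 CPM, above any other osteoblasts. Ctgf was higher than in the mean of the other types in chondrocytes (log2 2.11, SE 0.24, edgeR quasi-likelihood adjusted p = 2.84e-06, n = 2 libraries with chondrocytes), tendon cells (1.70, SE 0.17) and MSC (0.97, SE 0.18), and lower in osteoblasts (-2.20, SE 0.26) and Pi16 fibroblasts (-2.08, SE 0.26). Chondrocytes and tendon cells did not differ (0.34, SE 0.29). The step from tendon cells to MSC, 0.61 (SE 0.23, adjusted p = 0.0465), was lost when WT_A1, NHD13Tg or Control was left out (0.58 to 0.70) and in 6 other alternatives, among them DESeq2 (0.58, adjusted p = 0.0584) and library totals in place of TMM scaling (0.36). The step from fibroblasts to Pi16 fibroblasts, 1.33 (SE 0.27, adjusted p = 0.0296, edgeR), was lost without WT_A1 (adjusted p = 0.327), without NHD13Tg (0.310) and with doubled thresholds (0.565). Among osteoblasts at full depth, a Ctgf UMI was seen in 38.0% of cells in WT_A1, 51.1% in NHD13Tg and 33.3% in Control. A single cell held 18.2% of the 148 Ctgf UMIs in WT_A1, 11.1% of the 467 in NHD13Tg and 30% of the 60 in Control.

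Wisp3, the sixth family gene, was a chondrocyte gene at 75.4 CPM in Control and 58.6 CPM in Abcg2-MDS/AML. In all other types with at least 20 cells it stood at or under 10.7 CPM, the level in Control tendon cells. Its difference between chondrocytes and the other types was a log2 of 6.17 (SE 0.46, edgeR quasi-likelihood adjusted p = 1.24e-07, n = 2 libraries with chondrocytes).

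Shares of cells with a UMI were compared after every cell had been thinned to 2000 UMIs. Blood cells that escaped the sort served as a background, since they should lack these genes. In the 358 blood cells of Control, 1.40% had a Cyr61 UMI, 3.35% a Ctgf UMI, 0.279% a Nov UMI and none a Wisp1 or Wisp2 UMI after thinning, which allows a share of up to 0.838% for each. Their median depth before thinning was 24747 UMIs, against 3323 to 12594.5 UMIs in the gated types with at least 20 cells. Before thinning, 13.1% of them had a Cyr61 UMI and 18.4% a Ctgf UMI. A like amount of free RNA per cell is a smaller part of such deep cells. Their thinned shares may therefore understate the background of shallower cells.

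Cyr61 was seen in 68.6%, 77.0%, 70.3% and 57.1% of thinned MSC and in 33.9%, 34.7%, 35.7% and 23.3% of fibroblasts. Ctgf was seen in 56.2%, 75.5%, 61.2% and 78.2% of tendon cells and in 64.3% and 90.6% of chondrocytes, the highest share of any member in any type with at least 20 cells. Unthinned, Ctgf was seen in 79.8% of Control and 99% of Abcg2-MDS/AML chondrocytes. Wisp2 was seen in 47.9%, 86.7%, 30.9% and 41.6% of MSC, so that in NHD13Tg all but a small minority carried it. Wisp1 was seen in 59.8%, 44.0% and 37.0% of osteoblasts in WT_A1, NHD13Tg and Control. In any other gated type with at least 20 cells, at most 4.36% had one. Of the cells that passed no threshold, 6.75%, 9.66%, 2.04% and 2.08% had a Wisp1 UMI. Nov was seen in 24.1%, 24.9%, 26.3% and 21.1% of fibroblasts, and in at most 1.30% of MSC, osteoblasts and chondrocytes. The blood cells give a background for Control alone (0.279%). Free RNA held 125, 99.4, 17.4 and 36.1 CPM of Nov, so that background may not hold in the other libraries.

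**Figure D2:**
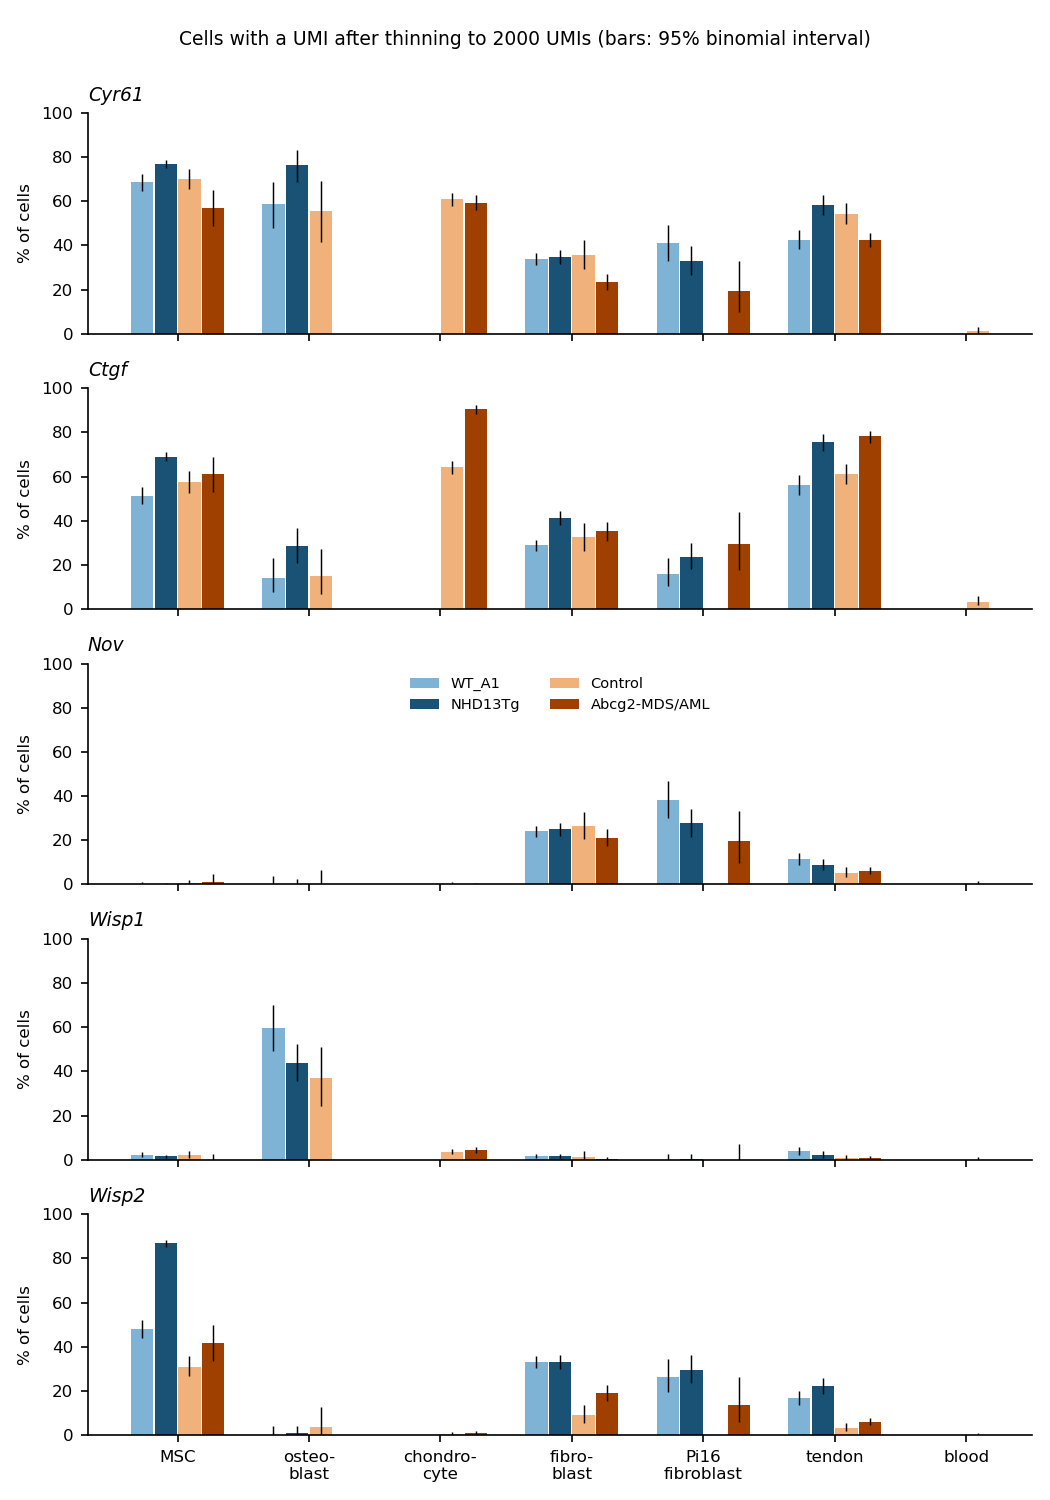
Percent of cells with at least 1 UMI of each member after thinning to 2000 UMIs, by cell type and library (bars, with exact 95% Clopper-Pearson intervals; types with under 20 cells in a library are left out, so blood is drawn for Control alone). The Ctgf bars of tendon cells are taller in the model library of each pair, as are those of chondrocytes in the Abcg2 pair, and the blood cells stay at or under 3.35%.

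Cyr61 and Ctgf, which share YAP/TAZ as a known regulator, were read in the same cells. In tendon cells, Ctgf was seen in 63.0% of cells with a Cyr61 UMI and 51.1% of cells without one in WT_A1, in 81.3% against 67.5% in NHD13Tg, in 63.4% against 58.6% in Control and in 86.3% against 72.1% in Abcg2-MDS/AML. In NHD13Tg and in Abcg2-MDS/AML the 95% intervals of these shares did not overlap, and in WT_A1 and Control they did. In chondrocytes the shares were 69.2% against 56.6% in Control and 90.8% against 90.1% in Abcg2-MDS/AML. In fibroblasts they were 33.8% against 26.2%, 47.1% against 38.2%, 45% against 25.7% and 43.5% against 32.7%. MSC gave 53.5% against 47.0%, 71.8% against 60%, 58.0% against 56.5% and, the other way, 60.2% against 62.1%. The share was also lower with Cyr61 than without it in the osteoblasts of NHD13Tg (25.9% against 36.4%) and the Pi16 fibroblasts of WT_A1 (13.6% against 17.6%), with overlapping intervals. These are cells of 1 library each, thinned to equal depth, and no test across libraries was made.

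The second question was whether the members differ between a model and its wild type within the pairs. With 1 library on each side no test is possible. A member was called where its level differed at least 2-fold, the exact 95% counting interval of the ratio left out 1, and 1 library reached 20 CPM. Over 9 comparisons of 1 type in 1 pair, 7 calls were made, all of them Ctgf or Wisp2 and all higher in the model library. Of all genes, 0.321% to 1.99% were called higher in the NHD13 comparisons and 3.51% to 7.54% in the Abcg2 comparisons. Called lower were 0.803% to 2.51% and 10% to 15.1%. All types of a pair come from the same 2 libraries, so the types are not independent of each other. In the cells that passed no threshold, Ctgf (log2 1.48) and Wisp2 (3.05) were called in the Abcg2 pair, where 8.76% of genes were called higher, and no member was called in the NHD13 pair, where 0.64% were.

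In NHD13Tg, Wisp2 was higher in MSC, from 435 to 1475 CPM (log2 1.76, interval 1.68 to 1.84), the one member called there, where 1.18% of genes were called higher and 2.25% lower. The share of cells with a UMI after thinning went from 47.9% to 86.7%. Beyond MSC the Wisp2 differences of this pair were smaller: log2 0.60 (0.40 to 0.79) in tendon cells, 0.10 (0.02 to 0.18) in fibroblasts and -0.04 (-0.25 to 0.18) in Pi16 fibroblasts. Wisp2 also differed in the free RNA of the pair, that is in barcodes of 1 to 100 UMIs, at 429 against 186 CPM (log2 1.21). The MSC difference kept a log2 of 1.78 after free RNA had been subtracted at 10% of each sum.

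Ctgf in NHD13Tg was called in tendon cells, from 1036 to 2347 CPM (log2 1.18, interval 1.12 to 1.24), where 0.672% of genes were called higher and 1.52% lower, and in osteoblasts, from 118 to 246 CPM (1.06, 0.79 to 1.34), where 1.99% were. The osteoblast value is 148 UMIs against 467, and it fell short of 2-fold when thresholds were doubled (0.96), when cells were weighted equally (0.94) and when cells were counted in every threshold passed (0.85). The subtraction of free RNA gave no usable value there, since it left WT_A1 with no Ctgf. In the other types Ctgf differed less: log2 0.74 (0.68 to 0.80) in MSC, 0.63 (0.57 to 0.70) in fibroblasts, where 0.321% of genes were called higher, and 0.85 (0.60 to 1.12) in Pi16 fibroblasts, where 1.14% were called higher and 2.51% lower. Each of these 5 intervals lay above a ratio of 1. Pi16 fibroblasts reached 2-fold in 3 alternatives (1.04 to 1.74) and fibroblasts in 1 (1.02, doubled thresholds). In free RNA of this pair Ctgf stood at 1837 against 1488 CPM, a log2 of 0.30. From WT_A1 to NHD13Tg, marker sums of the tendon cells differed: synovial lining from 4398 to 7389 CPM, fibroblast from 31780 to 38985 CPM. Tendon markers went from 16952 to 21100 CPM, osteoblast markers from 9968 to 8472 CPM and blood markers from 263 to 10.9 CPM. The part of these in the Ctgf values was not tested.

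In Abcg2-MDS/AML, Ctgf was higher in tendon cells, from 1075 to 3891 CPM (log2 1.86, interval 1.79 to 1.92), where 7.54% of genes were called higher and 10% lower. Marker sums of these tendon cells differed as well, from Control to Abcg2-MDS/AML: tendon markers from 22504 to 15645 CPM, fibroblast markers from 26878 to 38426 CPM, osteoblast markers from 17474 to 6180 CPM, chondrocyte markers from 2211 to 586 CPM and synovial lining markers from 33852 to 14584 CPM. Their part in the Ctgf difference was not tested. In MSC it went from 1021 to 2508 CPM (1.30, 1.19 to 1.40), where 7.35% were, but these are the MSC with low MSC markers described above, and with doubled thresholds the difference was 0.80. In chondrocytes it stood at 1451 and 2501 CPM (0.79, 0.75 to 0.82), where 3.51% of genes were called higher, and in fibroblasts at 465 and 671 CPM (0.53, 0.38 to 0.68). The median difference of all genes was -0.31 in the chondrocyte comparison and -0.26 in the fibroblast comparison, so relative to it both values would be larger. Marker sums of both types differed as well, as given above, and their part was not tested. Free RNA of this pair held 1194 CPM in Control and 3315 CPM in Abcg2-MDS/AML, a log2 of 1.47. Subtracting free RNA at 10% of each sum left 1.90 in tendon cells and took the fibroblast difference to -0.03. Ctgf in the blood cells of Control was 22.5 CPM, against 1194 CPM in the free RNA of the same library. Those blood cells held a median of 24747 UMIs, so the part of free RNA in shallower cells cannot be read from them.

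Wisp2 in Abcg2-MDS/AML was called in fibroblasts, from 83.2 to 183 CPM (log2 1.13, interval 0.79 to 1.5), where 6.81% of genes were called higher, and in tendon cells, from 23.8 to 55.3 CPM (1.21, 0.77 to 1.69). The tendon value rests on 51 and 200 UMIs and was 0.79 with doubled thresholds. The fibroblasts and tendon cells of this pair differed in marker sums, as given above. The part of this in the Wisp2 values was not tested. In MSC Wisp2 stood at 242 and 413 CPM (0.77, 0.53 to 1.01; 1.14 with doubled thresholds), with the limit on those cells given above. Free RNA held 16.6 and 72.5 CPM, a log2 of 2.12, which is more than in any gated type of this pair, and its part in these values was not tested beyond the subtraction at 10%, which left 1.10 in fibroblasts and 1.11 in tendon cells.

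**Figure D3:**
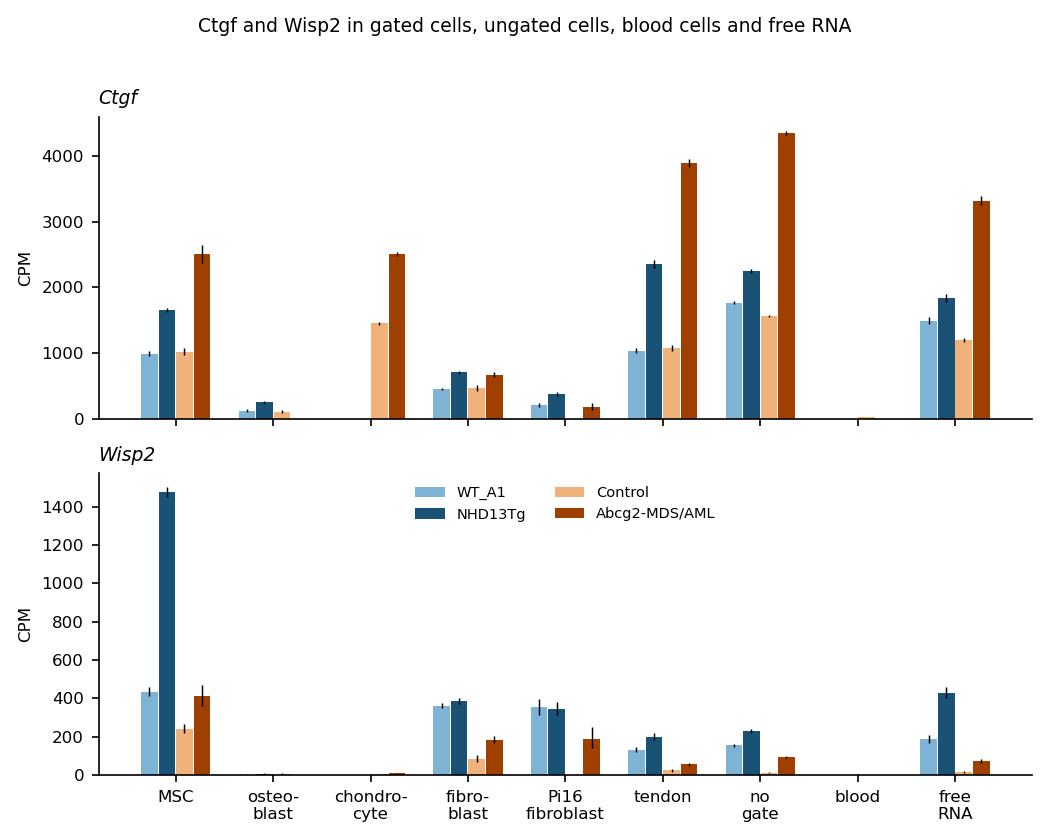
Level of Ctgf and Wisp2 (CPM, linear axis, exact 95% Poisson intervals) in the gated types, in cells passing no threshold, in the blood cells of Control and in free RNA. The model library of each pair is the higher one in free RNA and in cells passing no threshold as well as in tendon cells. The blood cells, with a higher median depth than the gated types, lie near 0 beside the free RNA of their library.

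Nov, Wisp1 and Cyr61 were not called in any of these comparisons. Nov differed in the tendon cells of the NHD13 pair, 123 against 69.7 CPM (log2 -0.82, interval -1.10 to -0.56), and by a log2 between -0.10 and 0.33 in the other comparisons where it reached 20 CPM. Wisp1 in osteoblasts was 516 CPM in WT_A1 and 340 CPM in NHD13Tg (-0.60, -0.76 to -0.44), and in tendon cells 26.3 and 13.4 CPM (-0.97, -1.62 to -0.37). In the NHD13 pair Cyr61 was higher in the model library in MSC (0.75), tendon cells (0.48), osteoblasts (0.28) and fibroblasts (0.12), each with an interval above 0, while Pi16 fibroblasts gave -0.20 (-0.42 to 0.03), and in the Abcg2 pair it was lower in MSC (-0.57), fibroblasts (-0.43), tendon cells (-0.24) and chondrocytes (-0.11), each with an interval below 0.

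**Figure D4:**
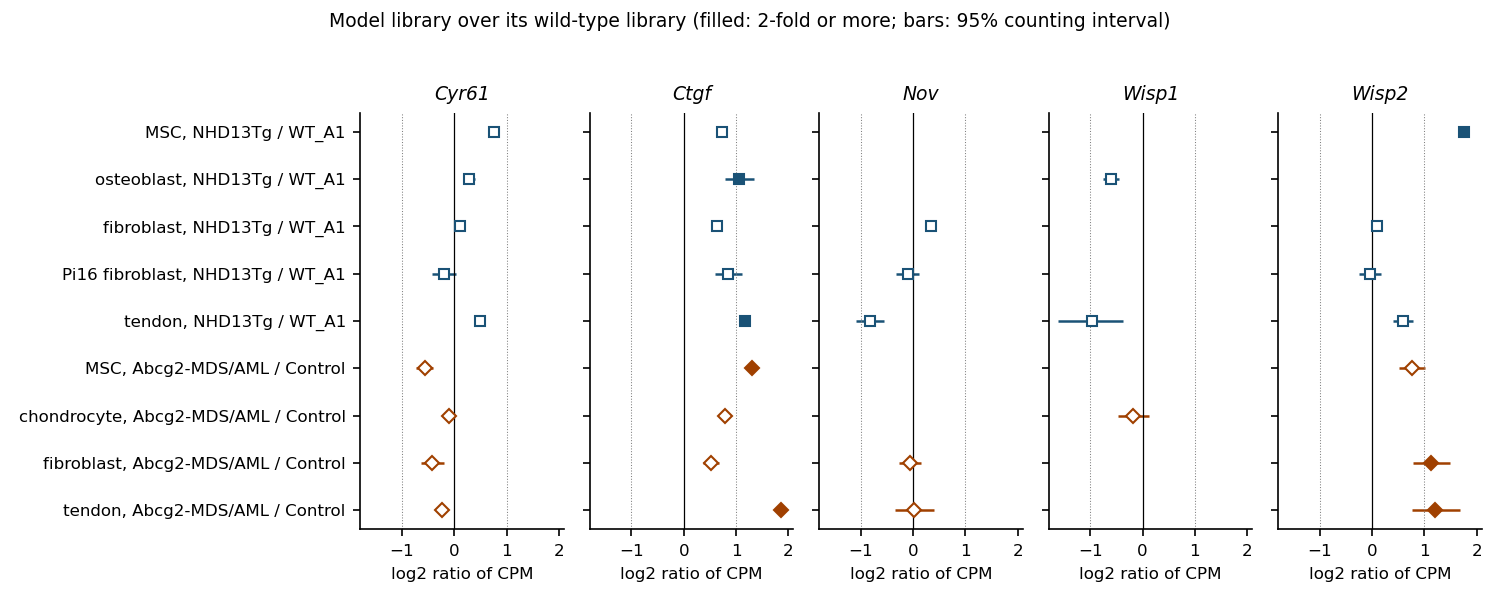
log2 ratio of CPM, model library over its wild-type library, for each member and comparison in which it reached 20 CPM (squares for the NHD13 pair, diamonds for the Abcg2 pair; bars are exact 95% counting intervals, and filled symbols mark differences of at least 2-fold, dotted lines). All Ctgf points lie to the right of 0, from 0.53 to 1.86, and the Cyr61 points lie from -0.57 to 0.75.

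The pairs share no library, so a type found in both gives a comparison of model with wild type in 2 separate pairs. In tendon cells the smaller of the 2 Ctgf differences was a log2 of 1.18, and 9 of the 5144 genes tested in both pairs had a smaller difference at least that large, Ctgf among them. The corresponding numbers were 41 of 5844 genes in MSC (0.74) and 76 of 5354 genes in fibroblasts (0.53). For Wisp2 they were 38 genes in MSC (0.77), 56 in tendon cells (0.60) and 638 in fibroblasts (0.10). The MSC numbers draw on the MSC of Abcg2-MDS/AML, which were low in MSC markers. The tendon cells of both pairs and the fibroblasts of the Abcg2 pair also differed in marker sums, as given above. Genes whose interval lay above 1 in both pairs made up 5.17% of genes in MSC, 6.35% in fibroblasts and 5% in tendon cells.

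A joint fit of both models against both wild types, with pair as a block, was possible in MSC, fibroblasts and tendon cells. No member passed edgeR's quasi-likelihood test with Benjamini-Hochberg adjustment, and neither did any other gene. Of 10177, 10822 and 10152 genes tested in the 3 types, 540, 402 and 554 had an unadjusted p under 0.05. Numbers of about that size would arise with no difference in any gene. The fit has 1 residual degree of freedom. On simulated counts for the MSC (dispersion 0.05) it recovered 81 of 100 genes changed 4-fold and 6 of 100 changed 2-fold. The simulation gave all libraries the same mean levels apart from the changed genes. Differences between libraries such as those in MSC markers were not simulated, so real data may yield fewer. Ctgf had a log2 difference of 1.58 (SE 0.35) in tendon cells, with an adjusted p of 0.836 and an unadjusted p of 0.00259, of 1.09 (SE 0.37) in MSC and of 0.74 (SE 0.28) in fibroblasts. Wisp2 had 1.34 (SE 0.37) in MSC, with an adjusted p of 0.650, and 0.96 (SE 0.31) in tendon cells. The MSC values of this fit carry the limit on the MSC of Abcg2-MDS/AML given above. Where no filter on low counts was used, Ctgf in tendon cells passed (1.59, adjusted p = 0.0205, edgeR).

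The pathways that regulate or receive CCN proteins were read through lists of named genes, described by their counts. YAP/TAZ-TEAD targets other than the CCN genes were higher in tendon cells for 9 of 20 tested genes and lower for none (median log2 0.58, against 0.04 over all genes), beside 12.9% and 4.83% of all genes. Nt5e, an ectonucleotidase, was among them at 2.20, and Axl, a receptor tyrosine kinase, at 1.22. In osteoblasts 2 were higher and 14 lower (18.7% and 21% of all genes), with Axl at -4.31 (edgeR adjusted p = 5.48e-06). In MSC 9 were higher, Igfbp3 at 4.94 among them, and 4 lower (26.1% and 20.2% of all genes). Of the Hippo pathway genes and TEAD factors, 11 of 17 were higher and 1 lower in MSC (26.1% and 20.2% of all genes), with Tead1, one of the DNA-binding partners of YAP, at 1.18. Wwtr1, the gene of TAZ, was higher in chondrocytes (1.32) and lower in MSC (-0.83). Tead2 was higher in osteoblasts (3.05) and lower in chondrocytes (-4.16).

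Within the NHD13 pair no gene of the YAP/TAZ target list was called higher in any of the 5 types, among 8 to 15 tested, where 0.321% to 1.99% of all genes were, so none is what the share over all genes gives. One was called lower, Igfbp3 in MSC (87.1 against 263 CPM), where 2.25% of all genes were. In the Abcg2 pair 4 of 16 tested targets were higher in tendon cells, beside 7.54% of all genes. Igfbp3, an IGF-binding protein, stood at 308 against 6.99 CPM there, Gadd45a at 157 against 52.2 CPM and F3, tissue factor, at 43.4 against 11.7 CPM. Tead1 stood at 92.0 against 36.8 CPM in the same cells. In the MSC of this pair 5 of 15 targets were higher and 2 lower, beside 7.35% and 11.3% of all genes. Those MSC were low in MSC markers in Abcg2-MDS/AML. In fibroblasts 2 of 16 were higher and 2 lower, beside 6.81% and 15.1%, and in chondrocytes none of 14 was higher and 1 lower, beside 3.51% and 14.9%.

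Immediate early genes, which rise in cells during bone digestion as well as in signalling, are reported because Cyr61 responds in the same way. None of 24 tested was called in any NHD13 comparison, where at most 1.99% of all genes were higher and 2.51% lower. In the MSC of the Abcg2 pair, limited as above, none was higher and 6 of 24 lower, beside 11.3% of all genes. Fosb was among the lower genes (1577 against 3795 CPM). In the tendon cells of the Abcg2 pair 2 were lower, Klf2 and Nr4a1, which is near the 10% of all genes. Between types, 13 of 24 were higher and 2 lower in MSC (26.1% and 20.2% of all genes), 14 higher and none lower in chondrocytes (22.3% and 16.1%), and none higher and 20 lower in osteoblasts (18.7% and 21%), among them Egr1 at -1.03. Cyr61 was higher in all 3 of these types. The part of these genes in the level of Cyr61 was not tested.

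Of TGF-beta response genes, 10 of 24 were higher and none lower in tendon cells (12.9% and 4.83% of all genes), and 3 were higher and 12 lower in osteoblasts (18.7% and 21%), where Ctgf was lower too. Within the NHD13 pair none was called in tendon cells or fibroblasts, where at most 0.672% of all genes were called higher and 1.52% lower. In the tendon cells of the Abcg2 pair 2 of 23 were higher and 2 lower, near the 7.54% and 10% of all genes, with Tgfbi at 141 against 55.5 CPM and Tgfb1, the ligand, at 53.6 against 173 CPM. Wnt/beta-catenin response genes, read beside Wisp1, were mixed in osteoblasts: 5 of 17 were higher, Notum at 2.11 and Ctnnb1 at 1.33 among them, and 4 lower, beside 18.7% and 21% of all genes. Genes of the SRF/MRTF cytoskeletal programme were higher for 8 and lower for 4 of 18 in MSC (26.1% and 20.2% of all genes), with Tpm1 at 2.29, and higher for 3 and lower for 9 in osteoblasts (18.7% and 21%).

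Of 21 tested receptors and partners of CCN proteins, 9 were higher and 8 lower in MSC (26.1% and 20.2% of all genes), with Itgb1, the common integrin chain, at 0.65, Vegfa at 2.85 and Fn1, fibronectin, at -2.96. Osteoblasts had 2 higher and 12 lower (18.7% and 21% of all genes), with the endocytic receptor Lrp1 at -1.34. Within pairs, 1 was called in the NHD13 comparisons, where at most 1.99% of all genes were called higher and 2.51% lower. It was Itgb3 in Pi16 fibroblasts (41.8 against 19.4 CPM). In the tendon cells of the Abcg2 pair the 1 call was Bmp2, at 45.0 against 128 CPM, beside 7.54% of all genes higher and 10% lower. Among other matricellular genes 15 of 18 were higher in tendon cells, Thbs4 being part of the threshold and therefore no result, with Comp at 2.18 and Spp1 at 2.00, and none were lower (12.9% and 4.83% of all genes). In the tendon cells of the Abcg2 pair 1 of 18 was higher and 5 lower, beside 7.54% and 10% of all genes, with Sparc at 4142 against 16056 CPM and Comp at 2672 against 7633 CPM.

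The genes whose levels followed each member most closely over the 20 sums of type and library were found by Pearson's r of log2(CPM + 10) among 4772 genes with at least 50 CPM in 1 sum. The sums share libraries, and r is a description. For Nov they were Anpep (0.98), Mfap5 (0.98) and Ssc5d (0.98), and for Wisp1 Grrp1 (0.97), Col13a1 (0.97) and Bglap (0.96), a gene of the osteoblast threshold. For Wisp2 they were Sik1 (0.96), Rab23 (0.95) and Ftl1 (0.94). Cyr61 was followed less closely, by Fgfr2 (0.88), Ncam1 (0.87) and Mpzl1 (0.86), and Ctgf by Rbm7 (0.86), Arhgdib (0.85) and Slc44a2 (0.83). Within the family, Cyr61 and Ctgf had an r of 0.36, Cyr61 and Nov -0.84, and Wisp1 and Wisp2 -0.70.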

How the data were processed

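The authors deposited UMI counts as whole numbers for every gene and barcode, neither normalized nor limited to cells, as the values show. Cell Ranger (3.1.0) and Seurat (3.2.3) are the tools listed by the submitters' processing notes. The genome build of the files is not given in the sources used here. The members, gene lists and thresholds were chosen with earlier results of these data known. Thresholds are summed UMIs per 10000: at least 10 for MSC (Adipoq, Lepr, Esm1), 100 for osteoblasts (Bglap, Bglap2), 15 for chondrocytes (Col9a1, Col9a2, Col9a3), 8 for fibroblasts (Dpt, Clec3b, Col14a1), 5 for Pi16 fibroblasts (Pi16, Dpp4), 30 for tendon cells (Thbs4, Myoc) and, for blood cells, 10 over Ptprc, Coro1a, Laptm5, Tyrobp and Car1 with no other threshold passed. No doublet caller was run, and cells passing thresholds of several types (835, 722, 224 and 173) were left out.

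UMIs were summed per type and library and tested with edgeR 4.0.16 in R 4.3.3 (filterByExpr, TMM, quasi-likelihood F test, Benjamini-Hochberg over all genes tested, threshold 0.05). The type fit had library as a block, 20 sums and 11 residual degrees of freedom, and SE is the log2 difference divided by the square root of F. On simulated counts (dispersion 0.1) it recovered 57 of 100 genes changed 2-fold and 100 of 100 changed 4-fold, with 13 false calls among 11187 genes. Joint fits of the models had 4 sums per type. Ratios within pairs had 0.5 added to each count. DESeq2 1.42.0, numpy 2.4.6, scipy 1.17.1, pandas 2.3.3 and matplotlib 3.10.9 were used for alternatives, intervals and figures. Levels rest on 36133716 to 46033790 UMIs per library. Intervals cover counting error only. Named genes of lists were up to 3 called genes per direction and comparison, those with the highest mean CPM, and the 3 genes most like each member.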

Additional observations from a re-analysis of the deposited data

Results flagged for a closer look

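Cyr61 differed in opposite directions in the 2 pairs in each of the 3 types found in both. In MSC its log2 ratio of model over wild-type library was 0.75 in the NHD13 pair and -0.57 in the Abcg2 pair, in fibroblasts 0.12 and -0.43, and in tendon cells 0.48 and -0.24. The counting intervals left out 0 in all 6 cases, but with 1 library per group the difference between the pairs was not tested. The 3 types of a pair share their libraries. Free RNA gave 0.61 and -0.43 for Cyr61 in the same pairs. The median difference of all genes in the fibroblasts of the Abcg2 pair was -0.26, and the MSC of Abcg2-MDS/AML were low in MSC markers. Model, pair and the Xist difference between the pairs cannot be told apart.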

How the results depend on the processing

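The count of 24 comparisons past the test, each of 1 member in 1 type against the other types, was 23 to 27 in all alternatives. It was 23 to 25 when 1 library was left out, and the 7 calls within pairs were 6 to 9. The joint fits called 0 members except without a filter on low counts (1 member, Ctgf in tendon cells), where 64 higher and 37 lower genes were called in tendon cells. DESeq2 called 2 and 2 there. Reversals were limited to values not past the test. Cyr61 in tendon cells against the other types (0.06) was -0.23 with cells counted in every threshold passed and -0.049 with doubled thresholds, and -0.12 to 0.22 when 1 library was left out. Wisp1 in tendon cells (0.19) was -0.68 with cells counted in every threshold passed, and -0.13 to 0.94 when 1 library was left out. Cyr61 in the joint fibroblast fit (0.01) was -0.15 with library totals only, -0.0059 without a filter, -0.069 with cells counted in every threshold passed and -0.024 with doubled thresholds. Library totals in place of TMM moved the median of all genes in that fit from -0.01 to -0.16. The step of Cyr61 from MSC to tendon cells passed the test in 8 alternatives, DESeq2 (0.57, adjusted p = 0.0436) and library totals (0.80) among them. Ctgf in fibroblasts against the other types (-0.49) passed without Abcg2-MDS/AML (-0.39), with doubled thresholds (-0.75) and with cells in every threshold passed (-0.57). The causes were not tested. Of the alternative values within pairs, 183 moved by less than the width that counting error gives and 48 by more. Under 100 UMIs, as for Wisp2 in the tendon cells (51) and fibroblasts (83) of Control, counting error limits the ratio.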

Other observations

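Cells that passed no threshold (1600, 1481, 2455 and 2936) were the largest group of cells in 3 of the 4 libraries and were high in synovial lining markers, whose 6 genes summed to 56041, 50968, 46100 and 30368 CPM. Ctgf stood there at 1761, 2244, 1559 and 4344 CPM, higher than in any gated type of the same library except the tendon cells of NHD13Tg. Wisp2 stood at 154, 228, 11.5 and 95.7 CPM, so that the Abcg2 pair differed 8.29-fold (interval 7.09 to 9.80) where 8.76% of genes were called higher. Wisp1 stood at 66.2 and 107 CPM in the NHD13 pair and at 17.1 and 16.0 CPM in the Abcg2 pair, and Nov at 55.0, 46.7, 25.8 and 47.6 CPM. These cells were not sorted further by type, and the part of their makeup in these values was not tested.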
